A study of Homo sapiens with 8 samples.

Results

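EGFR, ERBB2, ERBB3, MET and AXL are receptor tyrosine kinases, and open chromatin around their genes was followed in H1650, a cell line from a human lung adenocarcinoma with an activating EGFR mutation. The assay, ATAC-seq, uses a transposase that cuts and tags accessible DNA. The cells were transfected with siRNAs matching exon 11a of ENAH (siMena11a), with an siRNA pool against hMENA as a whole (siMena) or with a non-targeting pool (siControl), each at 20 nmol/L, or were left untreated. hMENA is the actin regulator encoded by ENAH and hMENA11a its epithelial isoform; the series compares cells with either knocked down. Each group has 2 libraries, numbered 1 and 2, and nothing in the labels says whether these came from separate cultures, so p-values measure only the spread between these libraries, which may be technical. The labels give the molecule as total RNA, although the files are ATAC-seq peak lists.

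The data are 1 peak list per library. Overlapping or adjoining peaks from any of the 8 lists were joined into 1 region, which counts as listed in a library with a peak in it. The members are all regions that overlap a fixed window around each gene on build hg19, whatever their values. The EGFR window on chromosome 7 (54.99 to 55.38 Mb) holds 25 regions and the MET window on the same chromosome (116.26 to 116.49 Mb) holds 10. The ERBB2 window on chromosome 17 (37.82 to 37.91 Mb) holds 7, the ERBB3 window on chromosome 12 (56.45 to 56.52 Mb) holds 5 and the AXL window on chromosome 19 (41.7 to 41.8 Mb) holds 5. Together they hold 52 of the 46665 regions of the series.

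EGFR binds EGF and related ligands, and pairs with itself or with its relatives to signal through the RAS and PI3K pathways. ERBB2 has no known ligand of its own and acts as a partner receptor. ERBB3 has a weak kinase and, once phosphorylated by a partner, recruits PI3K. MET is the receptor for HGF, and AXL the receptor for GAS6. In lung cancer with mutant EGFR, MET and AXL are known as bypass receptors that keep growth signalling going when EGFR is inhibited.

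The 250 bases upstream of 5 annotated starts in 4 of these genes are shown because the windows are drawn around the genes. RefSeq's promoter table (build GRCh38.p14) matched EGFR, ERBB2, MET and AXL but not ERBB3, with 1 start each for ERBB2 and MET and 2 each for EGFR and AXL, all on the plus strand. Capitals mark the GC box, bound by Sp1-type factors (GGGCGG, or CCGCCC on the other strand), and the AP-1 motif (TGACTCA, or TGAGTCA on the other strand), which do not overlap here. The 2 EGFR sequences lie at chr7:55018767-55019016 and chr7:55109589-55109838, the ERBB2 one at chr17:39687844-39688093, the MET one at chr7:116671946-116672195 and the first AXL one at chr19:41218973-41219222, all in GRCh38.p14 coordinates. The second AXL start, whose upstream bases at chr19:41226505-41226754 hold neither motif, is not printed.
EGFR, first start: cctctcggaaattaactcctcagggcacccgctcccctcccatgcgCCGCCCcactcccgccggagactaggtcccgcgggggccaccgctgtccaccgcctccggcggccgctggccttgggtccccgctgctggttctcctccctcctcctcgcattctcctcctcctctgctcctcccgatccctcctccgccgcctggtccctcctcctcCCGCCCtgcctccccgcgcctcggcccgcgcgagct
EGFR, second start: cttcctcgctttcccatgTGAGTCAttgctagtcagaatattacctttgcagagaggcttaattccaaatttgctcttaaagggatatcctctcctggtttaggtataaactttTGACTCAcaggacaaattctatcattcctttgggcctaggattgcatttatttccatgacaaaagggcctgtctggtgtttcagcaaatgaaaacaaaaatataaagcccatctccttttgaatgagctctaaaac
ERBB2: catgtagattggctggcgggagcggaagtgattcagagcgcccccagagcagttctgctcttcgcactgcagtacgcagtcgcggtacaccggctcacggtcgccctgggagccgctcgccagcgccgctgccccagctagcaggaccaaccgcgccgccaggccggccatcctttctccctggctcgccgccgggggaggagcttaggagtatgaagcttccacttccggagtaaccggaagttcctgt
MET: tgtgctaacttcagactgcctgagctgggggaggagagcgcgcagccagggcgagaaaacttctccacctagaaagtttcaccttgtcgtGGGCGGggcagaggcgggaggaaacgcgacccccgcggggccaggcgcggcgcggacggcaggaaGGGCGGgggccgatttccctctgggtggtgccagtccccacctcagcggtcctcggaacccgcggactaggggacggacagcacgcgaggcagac
AXL, first start: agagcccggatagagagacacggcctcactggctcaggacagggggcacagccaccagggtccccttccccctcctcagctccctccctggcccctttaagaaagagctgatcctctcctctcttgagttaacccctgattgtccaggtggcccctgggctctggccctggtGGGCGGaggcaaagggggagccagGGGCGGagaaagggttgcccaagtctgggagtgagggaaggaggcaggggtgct

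The first EGFR sequence was 73.6% G or C with 25 CpG, the second 38.8% with 1 CpG, against a median of 58.0% and 11 CpG over the 35116 promoters of the table. MET had 68.4% and 24 CpG, ERBB2 65.6% and 23 CpG, and the first AXL start 64.4% but only 4 CpG. The first EGFR start, MET and the first AXL start had 2 GC boxes each, and ERBB2 and the second EGFR and AXL starts had 0. At least 1 GC box was in 42.6% of all promoters, and at least 2 in 24.3%. The second EGFR start alone among the 6 had the AP-1 motif, with 2 matches beginning 232 and 136 bases before the start; 4.2% of all promoters hold 1 or more matches and 0.182% hold 2 or more. A match is a run of letters, not a shown binding site.

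No annotation of hg19 was read here, so regions are not assigned to promoters, exons or introns from these files. As background from general knowledge of the hg19 gene models, and not from the data, the first EGFR start lies within the region at chr7:55086393-55087244. By the same gene models, MET starts within chr7:116311805-116312631, ERBB3 within chr12:56473534-56474020 and AXL, at its first start, within chr19:41724756-41725167. The second EGFR and AXL starts were not placed on hg19, so no region is matched to them. ERBB2 has starts in chr17:37843930-37844472, shared with the divergent gene PGAP3, and in chr17:37856075-37856598. The region at chr12:56497742-56498494 in the ERBB3 window is likewise the start of PA2G4, the next gene. In the RefSeq gene order the neighbours are SEC61G and LANCL2 for EGFR, PGAP3 and MIEN1 for ERBB2, RPS26 and PA2G4 for ERBB3, CAV1 and CAPZA2 for MET, and CYP2S1 and HNRNPUL1 for AXL. Regions in the short ERBB2, ERBB3 and AXL windows can thus belong to neighbours.

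In every group the replicate 2 list was the shorter one. Replicate 1 lists held 14678 to 35472 peaks and replicate 2 lists 1020 to 22424. The files give no read totals; the genome-wide background recovered from the peaks, was 0.538 to 0.935 tags in replicate 1 and 1.09 to 2.88 tags in replicate 2, higher in replicate 2 of every group. Its part in the length of the lists was not tested, and each comparison below is also made between same-numbered libraries. Regions at cell-type marker genes were not analysed here, and the lists give no check of the knockdown, since siRNA acts on mRNA.

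Receptor regions were more numerous in the longer lists, and the shortest list held none. Of the 52 regions, 39 were listed in siMena11a replicate 1 and 7 in siMena11a replicate 2, 23 in siMena replicate 1 and 0 in siMena replicate 2, 34 and 9 in the first and second siControl library, and 39 in untreated replicate 1 and 30 in untreated replicate 2. The listed share of the 52 regions was above the listed share of all regions in 7 of 8 libraries, from 75% against 74.6% in siMena11a replicate 1 to 44.2% against 30.2% in siMena replicate 1, the widest gap in percentage points. In siMena11a replicate 2 it was 13.5% against 5.92%. In siMena replicate 2, 0 of 997 listed regions lay in the windows, where a limit of 3 counts allows up to 30.1 per 10000 and the exact 95% Clopper-Pearson interval reaches 36.9. No member was listed in all 8 libraries, against 1.16% of all regions, which follows from the lack of members in siMena replicate 2. A further 4 (7.69%) were listed in 7, against 4.34% of all regions in 7 or more. Those 4 are 2 EGFR, 1 MET and 1 ERBB3 region. At the other end, 12 members (23.1%) were listed in 1 library only, against 31.2% of all regions. All 4 replicate 1 libraries listed 22 members (42.3%), against 27.6% of all regions.

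**Figure D1:**
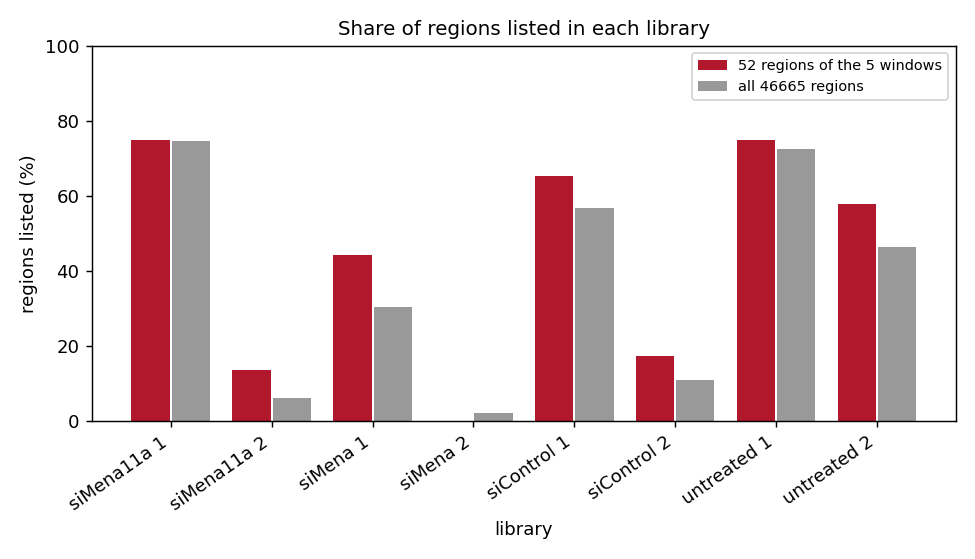
Share of the 52 regions of the 5 receptor windows (red) and of all 46665 regions (grey) that each library listed, in percent. The windows' bar is the higher one in 7 libraries and is at 0 in siMena replicate 2.

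**Figure D2:**
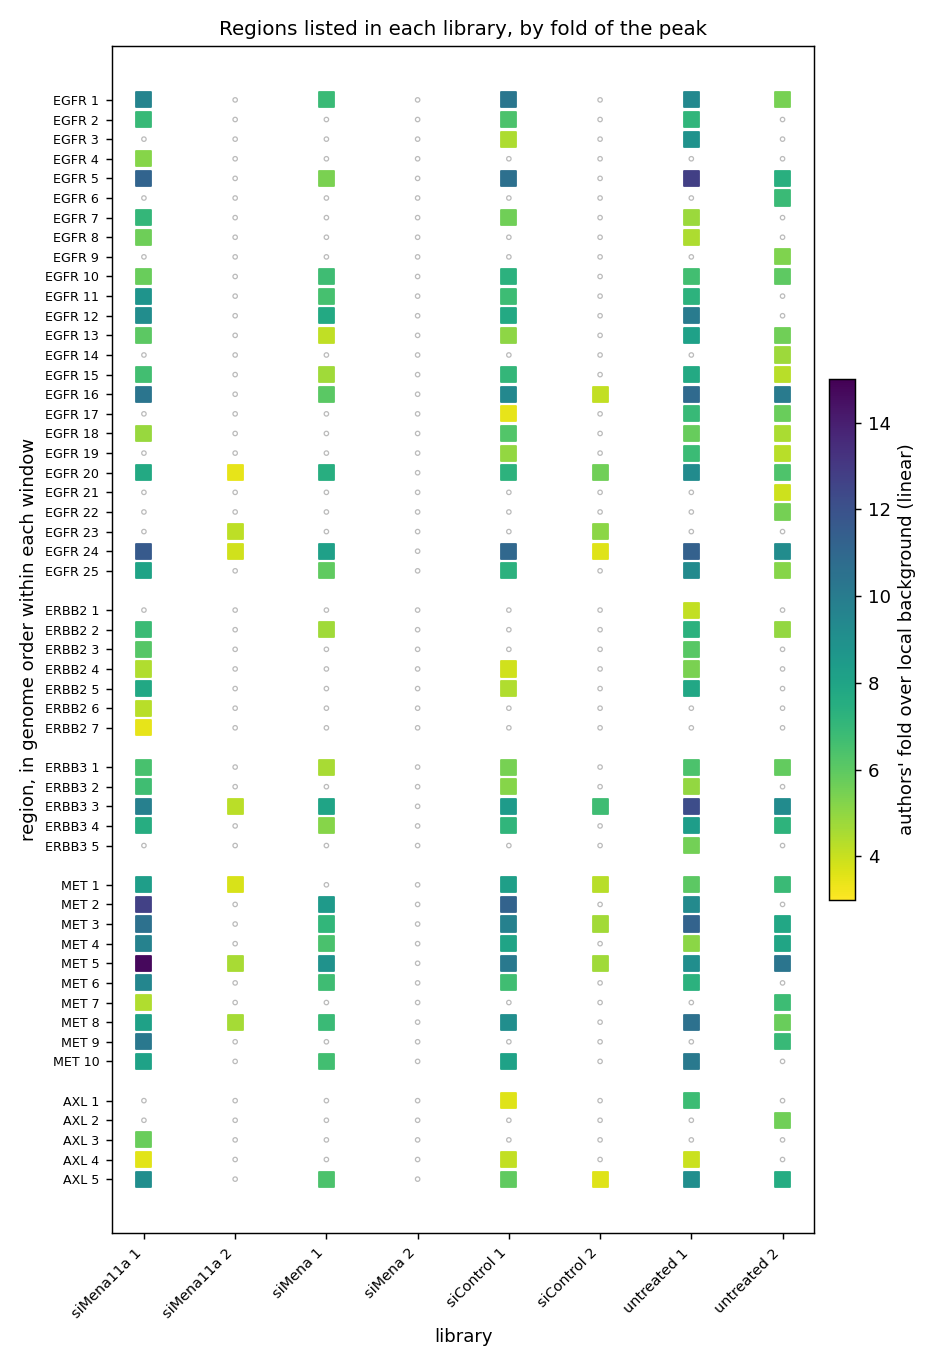
Each row is 1 of the 52 regions, numbered in genome order within its window, and each column 1 library; a filled square is a listed region, coloured by the authors' fold of its peak over local background, and a small circle a region that was not listed. The replicate 2 columns of the siMena11a, siMena and siControl groups are nearly empty, with 7, 0 and 9 squares.

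The fold given below is the authors' value for a peak, the tags at its summit over the local background of the same library with 1 added to each. It describes a peak within its own list. In replicate 1 libraries the median fold over the listed receptor regions was 7.77 (siMena11a), 6.64 (siMena), 7.09 (siControl) and 7.35 (untreated), against 6.62, 6.11, 6.49 and 6.99 over all listed regions of the same libraries. In replicate 2 the receptor medians were 4.21 (siMena11a), 4.68 (siControl) and 5.92 (untreated), against 4.66, 4.93 and 6.22 over all listed regions. By fold, the receptor regions thus stood above the list median in replicate 1 and below it in the replicate 2 libraries that listed any. By percentile of −log10 q within the list, their medians in the same replicate 2 libraries were 38.3, 32.6 and 60.0. By that rank, those of untreated replicate 2 stood above the middle of the list.

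The EGFR window had the most members, 25 regions over 390 kb, of which 9 were listed in 5 or more libraries. Of all regions in the series, 15.3% were listed in 5 libraries, 5.02% in 6, 3.18% in 7 and 1.16% in 8. Whether this window or those below depart from these shares was not tested. Among the EGFR regions listed in 7 libraries, the highest by its median rank within the lists was chr7:55253607-55254317, 711 bp wide. Its fold was 11.7 in siMena11a replicate 1, 3.89 in siMena11a replicate 2, 8.24 in siMena replicate 1, 11.0 and 3.60 in the siControl libraries, 11.3 in untreated replicate 1 and 9.20 in untreated replicate 2. Only siMena replicate 2 did not list it. The summit held 61 and 28 tags in the siMena11a libraries, 29 in siMena replicate 1, 51 and 26 in siControl and 40 and 47 in untreated libraries. Its percentile of −log10 q within the replicate 1 lists was 98.2 (siMena11a), 92.2 (siMena), 97.1 (siControl) and 94.2 (untreated), near the top of each.

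The second EGFR region listed in 7 libraries was chr7:55200313-55201133, with folds of 7.77 and 3.45 in siMena11a, 7.45 in siMena replicate 1, 7.29 and 5.59 in siControl and 9.27 and 6.33 in untreated libraries. Its 4 replicate 1 folds lay closer together than those of the strongest region. The region at chr7:55141592-55142249 was listed in 6 libraries, with folds of 10.4 in siMena11a replicate 1, 6.07 in siMena replicate 1, 9.41 and 4.09 in siControl and 10.9 and 10.1 in untreated libraries; siMena11a replicate 2 and siMena replicate 2 lacked it. At chr7:55034936-55035543, listed in 5 libraries, the fold was 11.2 in siMena11a replicate 1, 5.43 in siMena replicate 1, 10.6 in siControl replicate 1 and 12.8 and 7.44 in untreated libraries. The siMena fold was the lowest of the replicate 1 folds at both of these regions.

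The region of the first EGFR start, chr7:55086393-55087244, was picked out after its values were seen. It was listed in 5 libraries, with folds of 5.75 in siMena11a replicate 1, 6.74 in siMena replicate 1, 7.33 in siControl replicate 1 and 6.64 and 5.96 in untreated libraries. It is the one EGFR region listed by all 4 replicate 1 libraries whose siMena11a fold was the lowest of the 4. Its local background was 5.38, 3.94, 4.77 and 5.99 times the genome-wide value in the replicate 1 libraries of siMena11a, siMena, siControl and untreated cells, and 3.40 times in untreated replicate 2. Its summit tags were 36.3, 34.5, 41.7 and 50.2 times the genome-wide value in the same replicate 1 libraries. By that measure siMena and not siMena11a was the lowest.

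Several EGFR regions were seen in few libraries. Untreated replicate 2 was the sole library to list 5 EGFR regions. Over all windows it alone listed 6 members (11.5%), against 5.83% of all regions. All 25 EGFR regions bar those 5 and 2 more were listed in a replicate 1 library of untreated or siControl cells. One of the 2, chr7:55234913-55235243, also named after its values were seen, was listed in siMena11a replicate 2 (fold 4.21) and siControl replicate 2 (fold 5.09) and in no other library. The other, chr7:55021737-55021951, named in the same way, was listed in siMena11a replicate 1 alone, with a fold of 5.19. Over all windows, 4 members (7.69%) were listed in that library only, against 11.1% of all regions.

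**Figure D3:**
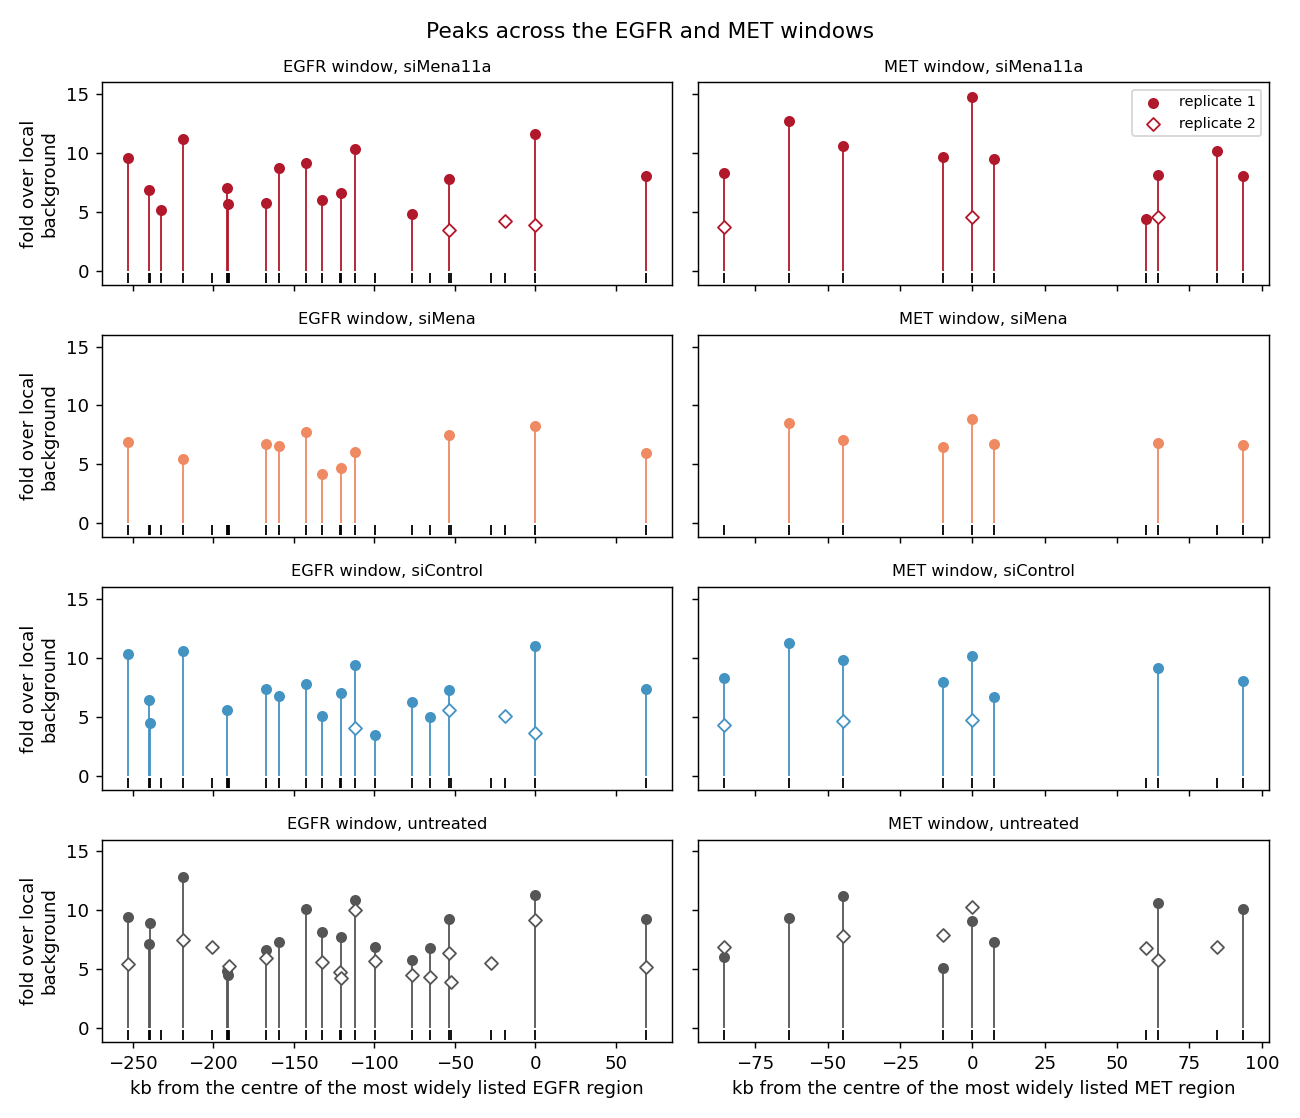
Fold of each listed peak (vertical axis, linear) by distance in kb, in the EGFR window (left) and the MET window (right), with 1 row of panels per group. Distances run from the centre of a region listed in 7 libraries, the most in either window. Filled circles are replicate 1, open diamonds replicate 2, and black ticks mark all member regions. The EGFR region at 0 kb, chr7:55253607-55254317, is the later in genome order of the 2 that were listed in 7 libraries. Its fold reached 11.7, 8.24, 11.0 and 11.3 in replicate 1 of siMena11a, siMena, siControl and untreated cells.

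The ERBB2 window was the least widely listed: none of its 7 regions was listed in 5 or more libraries, and 3 were listed in 1. In siMena11a replicate 1, 6 of the 7 were listed, in siMena replicate 1 1, in siControl replicate 1 2 and in untreated replicate 1 5. Untreated replicate 2 listed 1, and the other replicate 2 libraries listed none. The upstream start region, chr17:37843930-37844472, had folds of 6.83 in siMena11a replicate 1, 4.72 in siMena replicate 1, and 7.35 and 4.96 in the untreated libraries. Neither siControl library listed it. The downstream start region, chr17:37856075-37856598, was listed in 2 libraries, where its fold was 6.17 for siMena11a replicate 1 and 6.10 in untreated replicate 1. The summits held 18 and 9 tags, or 20.4 and 16.7 times the genome-wide background of the library. The remaining 2 regions named by rule, chr17:37861993-37862552 and chr17:37886410-37887026, were each listed in replicate 1 of siMena11a (4.42 and 7.80), siControl (3.87 and 4.45) and untreated cells (5.39 and 7.85).

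The ERBB3 window held 5 regions, 3 of them listed in 5 or more libraries. The most widely listed, chr12:56497742-56498494, had folds of 9.81 and 4.23 in siMena11a, 8.0 in siMena replicate 1, 8.46 and 6.74 in siControl and 12.2 and 9.28 in untreated libraries. This is the PA2G4 start, so the most widely listed region of the window is not assigned to ERBB3. The ERBB3 start region, chr12:56473534-56474020, was listed in 3 libraries, with folds of 6.70 in siMena11a replicate 1, 5.20 in siControl replicate 1 and 4.94 in untreated replicate 1. The region just before it, chr12:56472761-56473354, was listed in 5 libraries, with folds of 6.47, 4.57 and 5.45 in replicate 1 of siMena11a, siMena and siControl and 6.40 and 5.88 in untreated libraries. A further region, chr12:56511655-56512446, was listed in the same 5 libraries, with folds of 7.51, 5.19, 7.14, 8.38 and 7.22 in the same order.

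The MET window had no region confined to 1 library, and 5 of its 10 regions were listed in 5 or more. In siMena11a replicate 1 all 10 were listed, against 7 in siMena replicate 1, 8 in siControl replicate 1 and 8 in untreated replicate 1. The highest fold of all receptor regions was at chr7:116356633-116357203: 14.7 in siMena11a replicate 1, 4.57 in siMena11a replicate 2, 8.88 in siMena replicate 1, 10.2 and 4.72 in siControl and 9.13 and 10.3 in untreated libraries. The siMena11a and siControl ranges overlap, because both replicate 2 folds lie far below the replicate 1 folds. The MET start region, chr7:116311805-116312631, had folds of 10.6 in siMena11a replicate 1, 7.09 in siMena replicate 1, 9.79 and 4.68 in siControl and 11.2 and 7.84 in untreated libraries. At chr7:116420837-116421457 the folds were 8.13 and 4.61 in siMena11a, 6.85 in siMena replicate 1, 9.12 in siControl replicate 1 and 10.6 and 5.76 in untreated libraries. The fourth MET region named, chr7:116270937-116271361, was listed in every library outside the siMena group, with folds of 8.33 and 3.73 in siMena11a, 8.28 and 4.28 in siControl and 6.02 and 6.89 in untreated libraries.

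In the AXL window, 1 of 5 regions was widely listed, and it was not the region of the first AXL start. Neither it nor the neighbouring chr19:41768265-41768561 was assigned to AXL, and both can belong to the next gene, HNRNPUL1. At chr19:41769593-41770395, listed in 6 libraries, the fold was 9.12 in siMena11a replicate 1, 6.39 in siMena replicate 1, 5.94 and 3.57 in siControl and 9.13 and 7.60 in untreated libraries. The start region, chr19:41724756-41725167, was listed in siControl replicate 1 (3.57) and untreated replicate 1 (6.80), and at a percentile of 2.97 of −log10 q in the siControl list it stood close to the end of that list. The region at chr19:41768265-41768561 was listed in replicate 1 of siMena11a (3.55), siControl (4.12) and untreated cells (3.95), and chr19:41731596-41731904 in untreated replicate 2 alone (5.60).

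Width, spacing and local background were not part of the rule that chose the members, and the windows differed in them. Local background does enter the fold and p of each peak, and so which peaks are listed. Over all 5 windows the median width was 533.5 bp, against 394 bp over all regions, but the AXL median was 309 bp, and width grows with the number of lists merged. Among regions listed in 5 to 7 libraries the medians were 692.5 bp (18 members) and 716 bp (all regions). In 2 to 4 libraries they were 502 bp (22 members) and 413 bp, and in 1 library 249.5 bp (12 members) and 235 bp. The median gap between neighbouring regions of the same window was 10872 bp. Between all neighbouring regions on chromosomes 1 to 22 and X it was 25486.5 bp. The first value leaves out gaps that cross a window's edge, and none of its gaps can be longer than the window. The medians are thus not like for like, and closer spacing in the windows was not tested. Pooled over the windows, local background was higher around receptor peaks than around all listed peaks in all 7 libraries with members, at 3.35 against 2.27 times the genome-wide value in untreated replicate 1 and 2.81 against 2.18 in siMena11a replicate 1. In untreated replicate 1 the median was 4.54 over 5 listed ERBB3 regions, 3.55 over 18 EGFR regions, 2.96 over 8 MET regions and 1.93 over 5 ERBB2 regions, the last below that of all regions. The 3 listed regions of the AXL window had 7.55 and 7.51 at the neighbouring chr19:41768265-41768561 and chr19:41769593-41770395, and 1.97 at the first AXL start. The copy number of these genes was not measured here.

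The last ERBB3 member, chr12:56519957-56520196, named for its place at the edge with its values known, crosses the window's end and was listed in untreated replicate 1 alone, and the first region past that end, 1.65 kb away, was listed in 5 libraries. The nearest region beyond the AXL window lies 0.782 kb before it (1 library) and beyond the ERBB2 window 0.397 kb after it (2 libraries). Around EGFR the nearest outside regions are 44.3 kb before (1 library) and 53.1 kb after the window (5 libraries), and around MET 31.3 kb before (1 library) and 12.3 kb after (5 libraries).

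The siMena11a libraries were set against siControl first. A region was called gained if both siMena11a libraries and neither siControl library listed it, and lost in the opposite case. Of the 44 members listed in at least 1 of the 4 libraries, 0 were gained and 0 lost, against 0.0340% and 0.0680% of all such regions. Within replicate 1, siMena11a lacked 4 of the 34 members that siControl listed (11.0% over all regions) and listed 9 members that siControl lacked, of its 39 (32.4% over all regions). Of those 9, 4 were in the ERBB2 window, where siMena11a replicate 1 listed 6 regions. Within replicate 2 the siMena11a list lacked 3 of the 9 siControl members (54.9% over all regions), and 1 of its 7 members was absent from siControl (17.3% over all regions). Among the 30 members that both replicate 1 libraries listed, 24 had the higher fold in siMena11a, with a median log2 ratio of folds of 0.13. Over all 23530 shared regions the median was also 0.13, with 65.5% higher in siMena11a. In replicate 2 the direction was the opposite, with 1 of 6 members higher in siMena11a and a median of -0.24, against -0.16 over all regions. Per 10000 listed regions, the windows held 18.3 ± 9.99 regions in siMena11a and 15.3 ± 3.46 in siControl libraries (SD, n = 2 each), a difference of 2.96 (two-sided exact permutation p = 1.0), which was -1.66 within replicate 1, 7.58 within replicate 2 and -4.10 without siMena11a replicate 2. With 2 libraries against 2, no p below 0.333 is possible.

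**Figure D4:**
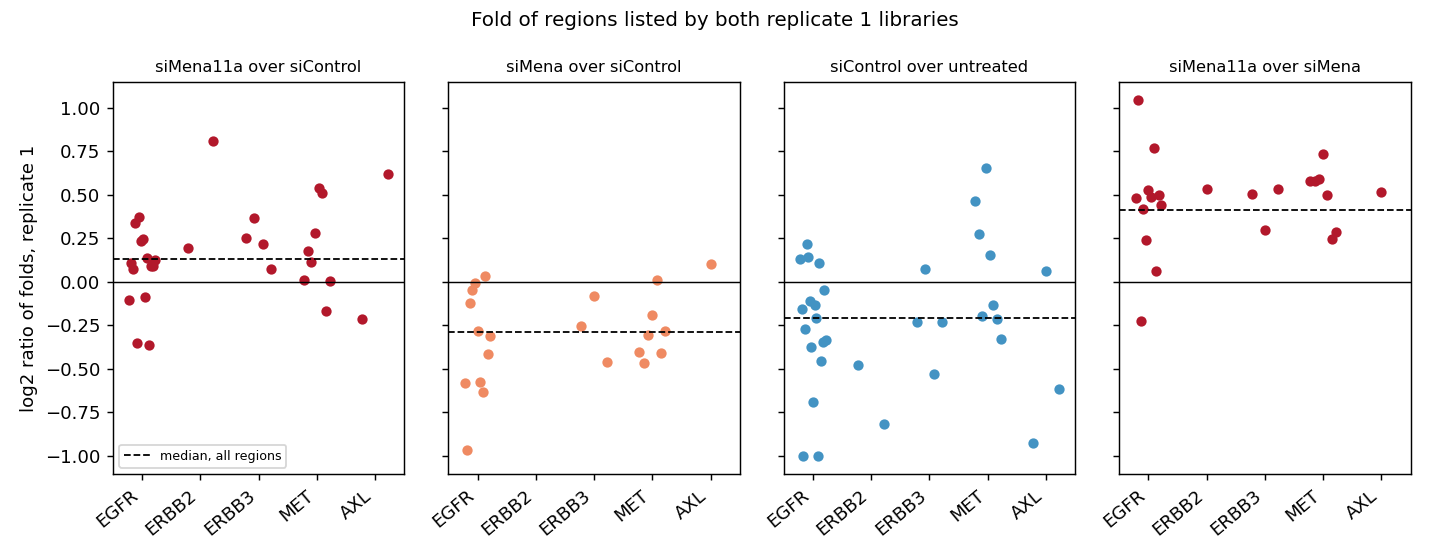
Log2 ratio of the folds in the 2 replicate 1 libraries named above each panel, 1 point per region that both listed, by gene window; the solid line is 0 and the dashed line the median of all regions that both libraries listed (0.13, -0.29, -0.21 and 0.41 from left to right). The receptor points scatter on both sides of the dashed line in each panel.

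The siMena libraries were set against siControl next. In the 5 windows 0 regions were gained and 1 was lost of 36 members listed in any of the 4 libraries, against 0.00359% and 1.73% of all such regions. As siMena replicate 2 listed no member, no gain could be called, and the 0 says nothing about the members. For the same reason, absence from siMena replicate 1 alone decided the siMena side of a loss. The lost one was the MET region chr7:116270937-116271361 described above. Its peaks stood low in the replicate 2 lists, at a percentile of 4.87 in siMena11a replicate 2 and 17.0 in siControl replicate 2, and with peaks held to an authors' score of at least 50 it was not called. Within replicate 1, siMena lacked 12 of the 34 siControl members (49.8% over all regions), with 6 of 17 in the EGFR and 1 of 8 in the MET window. Of the 23 siMena members, 1, the upstream ERBB2 start, was absent from siControl (5.98% over all regions). Within replicate 2, all 9 siControl members were missing from siMena (83.3% over all regions). Of 22 members listed by both replicate 1 libraries, 19 had a lower fold in siMena, with a median log2 ratio of -0.29, and over all 13266 shared regions the median was the same, -0.29. The EGFR regions had a median of -0.31, with 10 of 11 lower in siMena, and the MET regions -0.31, with 6 of 7 lower. The windows held 8.15 ± 11.5 regions per 10000 in siMena and 15.3 ± 3.46 in siControl libraries (SD, n = 2 each), a difference of -7.15 (two-sided exact permutation p = 0.667). It turned positive, to 1.00, without siMena replicate 2, the list with no member, and it was 3.44 within replicate 1 and -17.7 within replicate 2.

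Transfection with the control siRNA was compared with no treatment. Here 0 members were gained and 1 was lost of 48 members listed in any of the 4 libraries, against 0.137% and 4.15% of all such regions. The lost region was the upstream ERBB2 start, chr17:37843930-37844472. It was nonetheless listed in replicate 1 of both other transfected groups, siMena11a (6.83) and siMena (4.72). Within replicate 1, siControl lacked 5 of the 39 untreated members (31.3% over all regions), with 3 of 5 in the ERBB2 window. Every siControl replicate 1 member was also listed in untreated replicate 1, whereas 12.2% of all siControl regions were not. Within replicate 2, siControl lacked 22 of 30 untreated members (78.9% over all regions), with 14 of 17 in the EGFR window. Of the 9 siControl members, 1 was absent from untreated cells (9.82% over all regions). The fold was lower in siControl at 24 of 34 members listed by both replicate 1 libraries, with a median log2 ratio of -0.21 for the members and -0.21 for all 23212 shared regions. In the MET window, 4 of 8 regions were higher in siControl, with a median of 0.01; whether MET differs from the other windows was not tested. In replicate 2 all 8 shared members were lower in siControl, with a median of -0.92, against -0.68 over all regions. Per 10000 listed regions the windows held 15.3 ± 3.46 in siControl and 12.7 ± 1.64 in untreated libraries (SD, n = 2 each), a difference of 2.61 (two-sided exact permutation p = 0.667), which was 1.32 within replicate 1 and 3.89 within replicate 2. Leaving out 1 siControl library gave 0.163 (without the second) or 5.05 (without the first).

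Last, siMena11a libraries were set against siMena libraries. Relative to siMena, siMena11a gained 1 of 40 members listed in any of the 4 libraries and lost 0, against 0.314% and 0.00840% of all such regions. A loss needed both siMena libraries, and siMena replicate 2 listed no member, so no loss could be called. The gained one is again the MET region chr7:116270937-116271361. Within replicate 1, siMena11a listed every siMena member, while it lacked 3.54% of all siMena regions. Of the 39 siMena11a members, 16 were absent from siMena (60.9% over all regions), with 5 of 16 in the EGFR and 5 of 6 in the ERBB2 window. Within replicate 2 siMena listed no member, so all 7 siMena11a members were absent there (70.5% over all regions). The fold was higher in siMena11a at 22 of 23 members listed by both replicate 1 libraries, with a median log2 ratio of 0.50, against 0.41 and 88.0% higher over all 13610 shared regions. The exception was the region of the first EGFR start, with a log2 ratio of -0.23. Its summit tags over the genome-wide background went the other way, at 36.3 in siMena11a and 34.5 in siMena. The windows held 18.3 ± 9.99 regions per 10000 in siMena11a and 8.15 ± 11.5 in siMena libraries (SD, n = 2 each), a difference of 10.1 (two-sided exact permutation p = 0.667). It was -5.10 within replicate 1 and 25.3 within replicate 2, and without siMena replicate 2 it was 1.96. These comparisons share libraries, so the MET region and the siMena list enter more than 1 of them.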

How the data were processed

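Peak lists of 8 ATAC-seq libraries were used, 1 per library, on hg19. The submitters' processing notes name MACS2 2.2.5, SAMtools 1.7, Bowtie2 2.3.4.2 and FastQC 0.11.5, with no roles; trimming, duplicate removal and the transposase shift are not given in the sources used here. The deposited fold is a ratio of summit tags to local background, the deposited score is 10 times −log10 q rounded down, and the −log10 p and −log10 q are the authors' values, with q at most 0.01. Summits of 1 interval counted as 1 peak, with the values of its best summit. Regions were merged and listed at 1 bp of overlap. Whole-tag pileups and local backgrounds were recovered from fold and −log10 p by the Poisson formula (within 0.001 for 100% of peaks; checked on 484 simulated summits).

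Shares per library have 95% exact Clopper-Pearson intervals, for counting error only: 7.96 to 15.3 window regions per 10000 in siMena11a replicate 1 and 10.2 to 52.1 in siMena11a replicate 2. Named regions were the 4 of each window listed in the most libraries (ties by median percentile of −log10 q) and every gained or lost region; others are marked in the text as named with their values known. Members, windows and lists were chosen with earlier results of these data known. Ligands, adaptors and inhibitors of the pathway were not analysed here, as no hg19 annotation was used. Alternatives were a score of at least 50, lists shortened to 1020 peaks, 50% coverage of a region, windows extended by 50 kb, leaving out each library and the replicate number as a block. Scripts ran in Python 3.11.15 with SciPy 1.17.1 for tests, pandas 2.3.3 and numpy 2.4.6 for tables and matplotlib 3.10.9 for figures.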

Additional observations from a re-analysis of the deposited data

How the results depend on the processing

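Extending the windows by 50 kb took in 69 regions, left every gained and lost count as it was and kept the sign of the 4 share differences, with siControl minus untreated at 1.26 per 10000 regions. At a score of at least 50, the MET region was no longer lost with siMena or gained with siMena11a over siMena (0 each). With lists shortened to 1020 peaks, 5 regions remained in the windows, every gained and lost count was 0, and the siMena11a minus siControl share turned to -0.0485 per 10000 regions. For siControl minus untreated it was 14.8 there and 0.540 at a score of at least 50. Shares over all regions were not computed for the alternative settings, so the counts that follow have no background beside them. With 1 library left in a group, a call is also met more easily. Whether the receptor windows differ from all regions there was not tested. With 50% coverage, 2 regions were lost with siMena, 2 lost with siControl and 2 gained with siMena11a over siMena. Leaving out 1 library gave 0 to 9 gained and 0 to 4 lost regions for siMena11a against siControl (9 without siMena11a replicate 2), 0 to 1 and 1 to 12 for siMena against siControl (12 without siControl replicate 2), 0 to 1 and 1 to 14 for siControl against untreated (14 without siControl replicate 1), and 1 to 16 gained for siMena11a against siMena (16 without siMena11a replicate 2). The share differences ran from -4.10 to 10.0 for siMena11a minus siControl (negative without siMena11a replicate 2) and from -15.3 to 1.00 for siMena minus siControl (positive without siMena replicate 2), from 0.163 to 5.05 for siControl minus untreated and from 1.96 to 18.3 for siMena11a minus siMena (18.3 without siMena replicate 1); the cause was not tested. With the replicate number as a block, the share differences were 2.96, -7.15, 2.61 and 10.1 and no exact p fell below 0.5, the smallest that 2 pairs allow; fold deviations of same-numbered libraries correlated at 0.366 to 0.692 over 542 regions listed in all libraries, but with 2 pairs the design does not show that numbers pair samples. The depth of the lists limits every statement on absence: a region not listed is not shown to be closed.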
